A study of Homo sapiens with 18 samples.

Results

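The replication-dependent histone genes encode the linker histones H1 and the core histones H2A, H2B, H3 and H4 that package newly copied DNA. They were chosen by symbol alone, as H1-1 to H1-6 and every symbol made of H2AC, H2BC, H3C or H4C and a number, which took 69 of the 62703 genes counted. The 69 genes comprised 6 for H1, 17 for H2A, 18 for H2B, 13 for H3 and 15 for H4.

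Cells make most of their histone protein in S phase, when each new stretch of DNA has to be wrapped around octamers of the core histones and closed by H1. The genes have many near-identical copies, most lack introns, and their mRNAs end in a conserved stem-loop bound by the protein SLBP in place of a poly(A) tail. NPAT, a coactivator that the kinase CDK2 phosphorylates with cyclin E, switches them on in nuclear histone locus bodies, and the mRNAs are destroyed when DNA synthesis stops.

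The libraries came from total RNA of the human multiple myeloma cell lines AMO1, H929 (NCI-H929) and LP1. Each line had 3 libraries with the label gN1E, for a GapmeR against the long noncoding RNA NEAT1, and 3 with the label SCR, for a scrambled GapmeR, 18 in all. The treatment protocol gives 48 hours and the series design 48 days, and 48 hours is taken here. GapmeRs are antisense oligonucleotides through which a cell cleaves the matching RNA, and these were taken up from the medium without a transfection reagent. Libraries made from total RNA, with no selection for poly(A) tails, can hold histone mRNAs with stem-loop ends. The libraries held 28061606 to 49784737 for AMO1 gN1E, 53227560 to 66142827 for AMO1 SCR, 52856172 to 59302536 for H929 gN1E, 34710995 to 54387667 for H929 SCR, 44091209 to 57247024 for LP1 gN1E and 56542997 to 69937229 for LP1 SCR.

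NEAT1, the architectural RNA of nuclear paraspeckles on chromosome 11 (ENSG00000245532.11, 65422774 to 65445540), was high where its GapmeR was named. Its level in CPM (counts scaled to library size and the TMM factors of edgeR) was 473, 553 and 517 in the AMO1 libraries labelled gN1E and 75.7, 78.7 and 90.8 in those labelled SCR. It was 554, 464 and 542 against 79.8, 72.7 and 79.1 for H929, and 655, 667 and 828 against 135, 173 and 189 for LP1. The labels did not overlap in any of the 3 lines, and the log2 difference, gN1E minus SCR, was 2.66 (SE 0.074, adjusted p = 5.1e-13), 2.74 (SE 0.068, adjusted p = 3.1e-14) and 2.14 (SE 0.19, adjusted p = 0.027). The LP1 difference stayed between 2.00 and 2.25 with 1 library left out but lost the threshold without SCR B (2.17), gN1E A (2.20), gN1E B (2.19) or gN1E D (2.01). Since a GapmeR lowers its target, the direction goes against the label. The names inside the deposited tables exchange the GapmeR names, and also H929 with LP1, so every group below is called by its sample label and every change is given with NEAT1.

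All 69 genes lay in 6 groups on hg38. A stretch of chromosome 6 (25723397 to 26285638) held 34 genes, and shorter ones on the same chromosome held 5 (27125897 to 27147562) and 16 (27807479 to 27893891). Chromosome 1 held 11 genes (149782689 to 149887965) and a separate pair, H2AC25 and H2BC26 (228434777 to 228463104). H4C16, the remaining gene, sat alone on chromosome 12 (14767999 to 14771131).

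The stem-loop was looked for as 6 perfect base pairs that open with GG, close with CC and enclose 4 bases, within 150 bases after the stop codon (GENCODE 44, hg38). It was present in 67 of the 69 genes (97.1%) and in 84 of 19850 other protein-coding genes (0.423%). H2AC11 and H2AC15 had none in that window. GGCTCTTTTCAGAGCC was the most frequent form, in 40 genes, followed by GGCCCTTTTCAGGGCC in 10, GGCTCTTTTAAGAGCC in 9 and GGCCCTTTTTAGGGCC in 4, and 4 further forms had 1 gene each. It is shown for 4 genes that recur below, each printed with 5 bases on either side and the stem-loop in capitals.
H4C2 (chr6:26026896-26026921, minus strand): ccaatGGCCCTTTTCAGGGCCgccca
H2BC12 (chr6:27146361-27146386, minus strand): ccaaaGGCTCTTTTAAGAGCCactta
H2BC3 (chr6:26043227-26043252, minus strand): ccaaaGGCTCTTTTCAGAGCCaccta
H2AC20 (chr1:149887386-149887411, plus strand): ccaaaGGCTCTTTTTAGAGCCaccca
H4C2 carries a GGCCCT stem and the other 3 a GGCTCT stem, while the loop is the same in H4C2 and H2BC3 and differs by its last base in H2BC12 and H2AC20.

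Promoter windows from RefSeq (GRCh38.p14, 250 bases before to 50 after the start) were listed for 64 of the 69 genes in 68 entries, and H4C1, H4C3, H2AC12, H3C11 and H3C12 had no entry. Both strands were searched. ATTTGCAT, the octamer read by POU2F1, was in 27 of 68 windows (39.7%) and in 1.77% of all 35116 promoters. It was in 15 of 20 H2B and 11 of 16 H2A windows, in 1 of 13 H3 windows and in none of the 6 H1 and 13 H4 windows. CCAAT was in 85.3% of histone windows against 34.6% of all, in every window of H1, H2A, H2B and H3 but in 3 of 13 of H4, and TATAA was in 91.2% against 20.4%. TTTCCCGC, an E2F motif, was in 1.47% of histone windows and 1.63% of all.

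The 150 bases before the start are shown for the histone gene with the widest range between lines, H4C4, and for 3 H2B genes that rose with NEAT1 in H929. Capitals mark CCAAT, the octamer and the motif TATAA on either strand.
H4C4 (chr6:26189113-26189262, minus strand): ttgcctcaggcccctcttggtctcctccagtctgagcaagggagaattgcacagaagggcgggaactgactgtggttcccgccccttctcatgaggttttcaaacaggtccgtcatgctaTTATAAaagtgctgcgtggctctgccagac
H2BC3 (chr6:26043714-26043863, minus strand): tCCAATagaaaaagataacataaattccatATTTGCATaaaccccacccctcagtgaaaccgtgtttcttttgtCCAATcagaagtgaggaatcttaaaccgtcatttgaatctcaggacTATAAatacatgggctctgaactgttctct
H2BC12 (chr6:27146859-27147008, minus strand): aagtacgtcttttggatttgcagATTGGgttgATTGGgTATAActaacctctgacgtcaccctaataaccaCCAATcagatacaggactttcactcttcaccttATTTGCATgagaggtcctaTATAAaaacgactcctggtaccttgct
H2BC11 (chr6:27132796-27132945, minus strand): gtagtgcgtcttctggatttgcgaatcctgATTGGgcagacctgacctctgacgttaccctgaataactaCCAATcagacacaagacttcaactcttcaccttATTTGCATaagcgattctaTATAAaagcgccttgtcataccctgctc
The 3 H2B windows hold CCAAT, the octamer and TATAA, with TATAA nearest the start. The octamer lies between the last CCAAT and that TATAA in H2BC11 and H2BC12 and before the last CCAAT in H2BC3, and the H4C4 window holds TATAA with neither of the others. Of the other H2B genes that rose, H2BC8 and H2BC18 hold all 3 motifs in their promoter windows and H2BC26 holds CCAAT alone.

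Histone transcripts took 0.827 ± 0.074% of library counts in the AMO1 libraries (SD, n = 6 over both labels), 0.738 ± 0.051% in H929 and 0.439 ± 0.019% in LP1. No LP1 library overlapped the others, since its highest share was 0.468% and the lowest share elsewhere was 0.654%. For a single library the 95% Wilson interval was at most 0.00326 percentage points to either side, counting error alone. H2B genes contributed most, with 31.9, 33.0 and 36.5% of the histone counts in AMO1, H929 and LP1. The families H1 (20.5, 18.6 and 17.9%), H2A (18.4, 20 and 17.3%), H3 (17.0, 16.7 and 15.6%) and H4 (12.3, 11.6 and 12.6%) followed. The 10 most counted genes made up 46.5, 46.6 and 45.9% of the histone counts in the same order of lines.

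**Figure D1:**
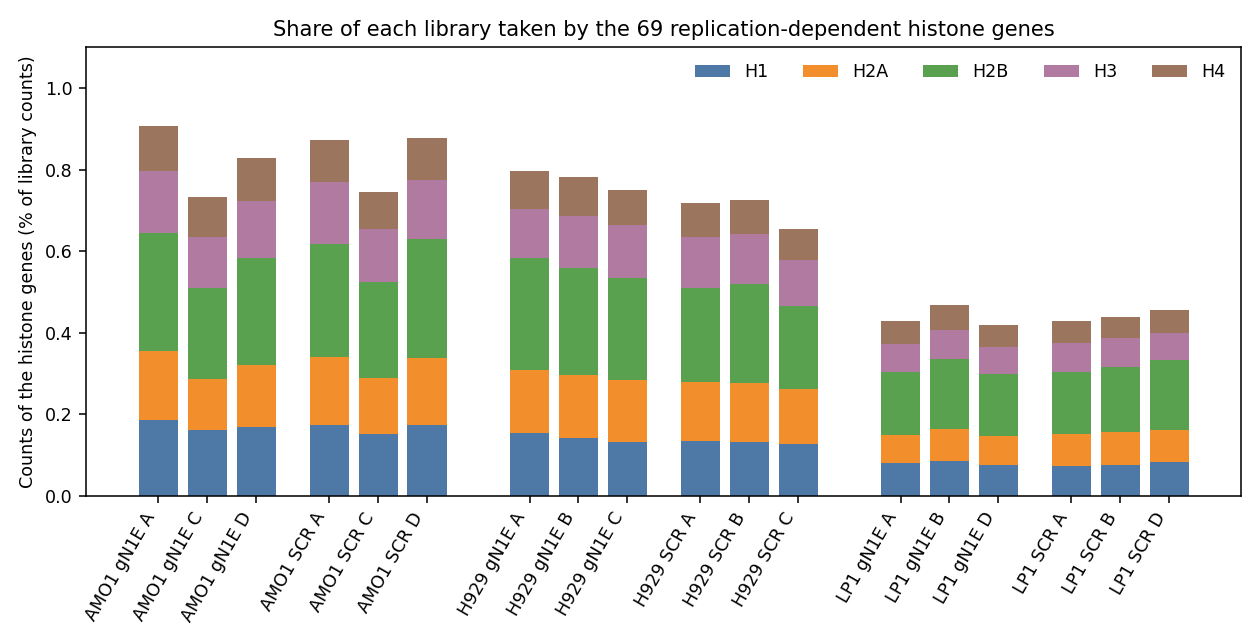
Stacked bars give the counts of the 5 histone families in percent of all counts of each of the 18 libraries, by line, label and replicate letter. The AMO1 bars reach 0.732 to 0.908%, the H929 bars 0.654 to 0.797% and the LP1 bars 0.419 to 0.468%, and only in H929 do all gN1E bars exceed all SCR bars.

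Levels of different genes are compared as CPM per kilobase of exon, averaged over the 18 libraries. H3C8 (586) and H3C2 (482), copies of the H3 gene, H2BC12 (557), an H2B gene, and the linker histone gene H1-2 (543) stood at the top. H1-4 (459) and H1-3 (326) followed H1-2 among the linker histones. H2AC11 (454), H2AC20 (383) and H2AC8 (334) led the H2A genes, H2BC4 (385) and H2BC7 (320) came next to H2BC12 among the H2B genes, and H3C3 (322) was the third of H3. H4C2 (383), H4C5 (335) and H4C3 (270) led H4, so each family had several highly expressed copies. The order is that of the pooled libraries and differs by line. In LP1, H4C5 (127 CPM) exceeded H4C2 (80.0 CPM) and H2AC20 (178 CPM) exceeded H2AC11 (130 CPM), at similar exon lengths.

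At the other end, H2AC1 had no read in any of the 18 libraries, which limits it to 0.0106, 0.00980 and 0.00889 CPM in the AMO1, H929 and LP1 groups at 3 counts over 6 libraries. Fewer than 10 reads in every library were found for 6 more genes, H2BC1, H1-1, H4C6, H4C7, H3C11 and H4C13. H2AC1, H2BC1, H1-1 and H1-6 are known for expression in testis or lymphoid tissue, and H1-6, the testis linker histone, had at most 24 counts. Of the rest, 62 had at least 10 reads in a library, 52 a mean of at least 1 CPM and 29 a mean of at least 100 CPM.

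Low counts had a measured limit for the duplicated genes of chromosome 1. All exon bases of H4C14, H4C15, H3C14, H3C15, H2AC18 and H2AC19 lie in runs of at least 150 bases that occur identically elsewhere, and read pairs that align to several places were not counted. These 6 genes had means of 0.057 to 0.238 CPM by line, so their expression cannot be read from these counts. The same applies in part to H4C11 and H4C12, which share most of their exon bases with each other, to H3C13 (73.1% of exon bases), H2AC14 (69.7%), H2AC13 (67.1%) and H2BC18 (50.6%). H3C4 (96.6%) and H2AC7 (85.3%) lie under another annotated gene on the same strand, and H2AC17 (71.0%) and H3C12 (40.3%) overlap each other, where pairs were also left uncounted.

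**Figure D2:**
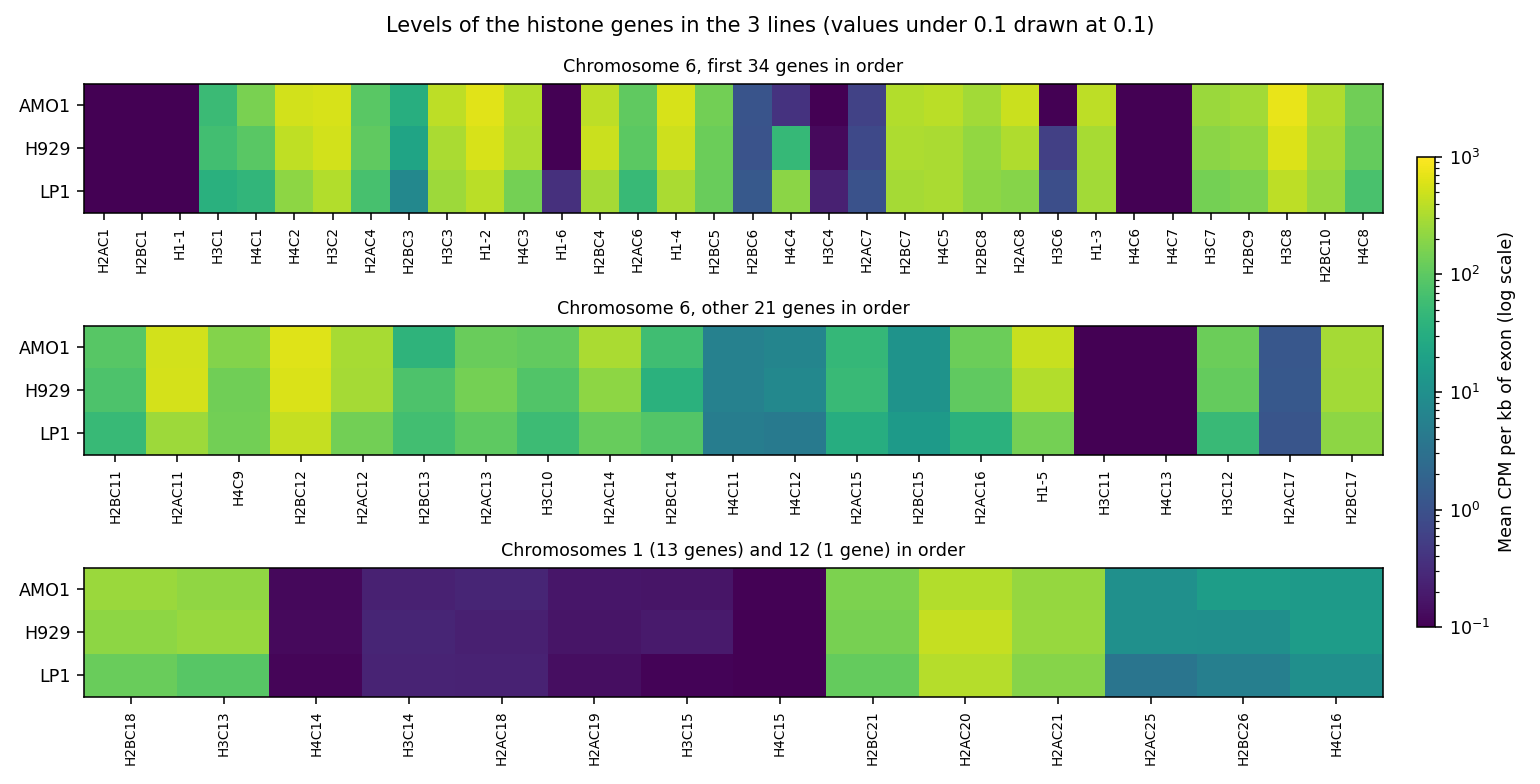
Colour gives the mean CPM per kilobase of exon on a log scale for each histone gene in the 6 libraries of each line, in gene order along chromosome 6 (first 34 genes, then 21) and along chromosomes 1 and 12. H4C4 and H3C6 are darkest in AMO1, and most other genes have a similar colour in AMO1 and H929 and a darker one in LP1.

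Comparing the lines asks whether myeloma lines use the same histone copies. Most histone genes were lower in LP1 than in the other lines, H4C4 and H3C6 ran the other way, and each line had its own exceptions. The test was a contrast of line means over both labels in an edgeR fit of all 18 libraries, with adjustment over 26436 genes, and 62 histone genes passed the count filter. Each label stands for 1 line in 1 culture series, so line and culture cannot be told apart.

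Of the 62, 41 were higher in AMO1 than in LP1 (all genes 37.9%) and 8 lower (all genes 37.9%). Likewise 40 were higher in H929 than in LP1 (all genes 38.4%) and 6 lower (all genes 36.2%). The lower counts of both comparisons include H1-6, which passed the count filter through LP1 libraries alone. AMO1 exceeded H929 for 20 (all genes 21.2%) and fell below it for 6 (all genes 23.2%). The lower counts of AMO1 against LP1 and against H929 include H3C6. It reached 10 reads in H929 and LP1 libraries only, so the count filter favours that direction. The median log2 difference of the histone genes was 0.54, 0.55 and 0.11 in these 3 comparisons, beside 0.02, 0.05 and 0.00 over all genes. Scaling by library size alone moved the all-gene median by 0.18 and 0.19 in the comparisons with LP1, to 0.20 and 0.24, and the histone medians to 0.72 and 0.73. Against LP1, AMO1 was higher for 4 of 5 H1, 10 of 16 H2A, 11 of 17 H2B, 8 of 12 H3 and 8 of 12 H4 genes tested. The 41 and the H4 count include H4C15 (0.201 against 0.106 CPM), whose expression cannot be read from these counts.

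H4C4 (ENSG00000277157.2), 1 of 15 copies of the H4 gene, had the widest range. Its counts were 2, 3 and 3 in the AMO1 libraries labelled gN1E and 9, 24 and 11 in those labelled SCR, all close to 0. In H929 they were 1146, 1125 and 1129 under gN1E and 1041, 1026 and 633 under SCR. LP1 had 4399, 3745 and 3549 under gN1E and 5298, 4397 and 3768 under SCR. No library of one line overlapped another line. The mean was 0.155 ± 0.104 CPM in AMO1, 19.0 ± 1.65 in H929 and 81.8 ± 6.29 in LP1 (SD, n = 6), and the log2 difference was -9.25 for AMO1 against LP1 (SE 0.11, adjusted p = 1.6e-36) and -2.11 for H929 against LP1 (SE 0.056, adjusted p = 2.8e-26). From summed counts without TMM scaling, LP1 exceeded AMO1 by 406 times (95% exact counting interval 310 to 544, for counting error alone), lower than the fitted difference, with 24 of the 52 AMO1 counts from SCR C.

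H3C6 (ENSG00000274750.3), an H3 gene, was in the same state at lower levels. AMO1 had 3 counts in all (0, 0 and 0 under gN1E, 0, 1 and 2 under SCR), H929 had 54 to 103 per library and LP1 84 to 206. From summed counts, H929 exceeded AMO1 by 154 times (95% exact counting interval 52.5 to 751) and LP1 by 214 times (72.8 to 1038), all AMO1 libraries lying below all others. Of the genes around them on chromosome 6, H2BC6 and H2AC7 were also lower in AMO1 than in LP1, with log2 differences of -0.23 (adjusted p = 0.049) and -0.69 (adjusted p = 0.035), at means of 2.87 and 0.319 CPM in AMO1 and 3.36 and 0.512 CPM in LP1 (all genes lower 37.9%). H2BC8 (0.40, adjusted p = 5.3e-05), H2AC8 (1.31, adjusted p = 9.8e-10) and H1-3 (0.52, adjusted p = 6.2e-14) were higher in AMO1 than in LP1, and H2BC7 and H4C5 did not pass. H2BC7 measured 162 ± 27.4 CPM in AMO1, 154 ± 23.2 in H929 and 137 ± 9.63 in LP1, and H1-3 measured 310 ± 25.2, 232 ± 13.6 and 216 ± 12.1.

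Genes that were low in LP1 came from several families. H2BC3, an H2B gene, had means of 15.7 ± 1.78 CPM in AMO1, 10.7 ± 2.11 in H929 and 3.56 ± 0.749 in LP1, a log2 difference of 2.15 between AMO1 and LP1 (SE 0.12, adjusted p = 5.3e-12) and of 1.58 between H929 and LP1 (SE 0.12, adjusted p = 8.8e-10). H4C1 fell in the same order, with 62.4 ± 5.32, 38.3 ± 2.48 and 17.5 ± 1.94 CPM and no overlap between lines. H2AC16, an H2A gene, had 60 ± 12.2, 51.1 ± 4.79 and 17.6 ± 2.60 CPM, so AMO1 and H929 overlapped (log2 difference 0.24, adjusted p = 0.17) and LP1 lay below both. The pair on the long arm of chromosome 1 gave 18.5 ± 3.87, 18.6 ± 3.47 and 6.67 ± 1.56 CPM for H2AC25 and 83.1 ± 10.6, 48.6 ± 5.90 and 27.0 ± 2.44 CPM for H2BC26. H1-5, a linker histone gene chosen after its values were seen, had 371 ± 51.0, 274 ± 33.6 and 115 ± 8.12 CPM.

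The other direction was rarer. H2BC14, an H2B gene, was highest in LP1 (39.6 ± 7.39 CPM), lower in AMO1 (27.8 ± 5.20) and lowest in H929 (17.1 ± 4.38), with a log2 difference of -1.23 for H929 against LP1 (SE 0.17, adjusted p = 1.4e-05). H2BC13, chosen after its values were seen, was lowest in AMO1 (18.2 ± 2.08 CPM against 34.5 ± 5.15 in H929 and 27.9 ± 2.96 in LP1). H1-6 had more reads in LP1, at 79 summed counts against 15 in AMO1 and 19 in H929, and H3C4 had 38 in LP1 against 9 and 22. Both reached 10 reads in LP1 libraries only, so the count filter favours LP1 and no test is given. H1-6 and H3C4 were at most 0.256 CPM in any line.

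**Figure D3:**
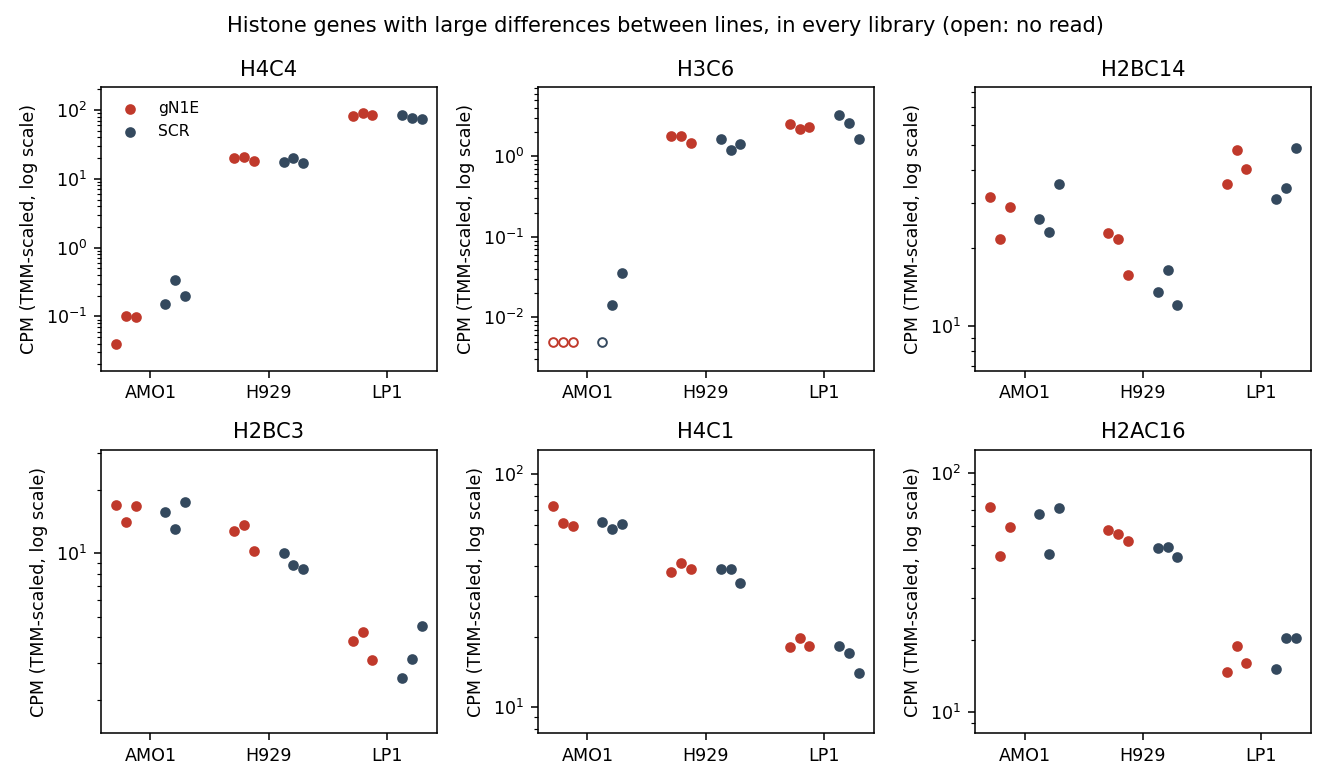
Points give the CPM (log scale) of 6 histone genes in every library, red for the label gN1E and dark blue for SCR, with open circles for libraries without a read. H4C4 and H3C6 are lowest in AMO1, H2BC14 is on average lowest in H929, and H2BC3, H4C1 and H2AC16 are lowest in LP1, whatever the label.

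Within each line, the labels gN1E and SCR were compared to ask how histone RNA changed with NEAT1. Each test was an edgeR quasi-likelihood fit over all genes that reached 10 reads in any of the 6 libraries, called at an adjusted p under 0.05. A permutation over 3 against 3 libraries cannot reach a two-sided p under 0.1, so no such test is given. In bulk RNA, more cells in S phase and more histone RNA per cell cannot be told apart.

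In H929, the summed share of histone RNA was higher with NEAT1, and 6 of the 9 genes that rose were H2B genes. The 69 genes together took 0.797, 0.781 and 0.750% of counts in the libraries labelled gN1E and 0.717, 0.726 and 0.654% in those labelled SCR. Every library with high NEAT1 lay above every library with low NEAT1. The means were 0.776 ± 0.024% and 0.699 ± 0.039% (SD, n = 3), a ratio of 1.11, or 1.16 with TMM-scaled libraries. H2B (ratio 1.16), H4 (1.12) and H2A (1.09) had no overlap between labels, whereas H1 (1.08) and H3 (1.06) overlapped, H3 no longer with TMM scaling. Summed shares get no test, as members of 1 family are not replicates.

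With edgeR, 9 of 58 tested histone genes rose with NEAT1 in H929, 15.5%, where 3.7% of all genes did. None fell, where 1.77% of all genes did. At an unadjusted p under 0.05, 24 lay higher and 2 lower (together 44.8%, all genes 17.7%). DESeq2 and limma-voom called none lower. With library size as the only scaling, 10 of 58 rose and none fell, where 2.37% of all genes rose and 3.16% fell. All gN1E libraries lay above all SCR libraries for 18 genes (31.0%; all genes 12.2%) and below them for 2 (3.45%; all genes 9.56%). A log2 difference above 0 was found for 48 of 58 (82.8%; all genes 47.9%). The median was 0.19 (quartiles 0.07 and 0.24), beside -0.01 over all genes. By family, 6 of 17 H2B, 2 of 14 H2A and 1 of 12 H4 genes passed, with medians of 0.26, 0.15 and 0.08, and the H1 and H3 medians were 0.16 and 0.09. All 5 family medians were above 0 under each scaling tried.

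The 6 H2B genes that rose included strongly and weakly expressed copies. H2BC18 had 437, 432 and 412 CPM with the label gN1E and 351, 369 and 294 CPM with SCR (log2 difference 0.32, SE 0.067, adjusted p = 0.0081). H2BC12, on chromosome 6, had 323, 355 and 306 against 250, 283 and 229 CPM (0.35, SE 0.071, adjusted p = 0.011). The lowest gN1E library exceeded the highest SCR library for both. H2BC8 measured 127, 132 and 107 against 96.2, 105 and 91.5 CPM (0.31, SE 0.074, adjusted p = 0.030), with gN1E C only just above SCR B. H2BC11 measured 86.8, 93.8 and 83.3 against 76.5, 76.2 and 65.7 CPM (0.26, SE 0.059, adjusted p = 0.0078). For H2BC11 the labels were clearly apart and SCR C was lowest. H2BC26 gave 54.8, 51.1 and 53.4 against 47.4, 45.9 and 38.7 CPM (0.26, SE 0.064, adjusted p = 0.016), and H2BC3 gave 12.8, 13.6 and 10.2 against 10.0, 8.79 and 8.44 CPM (0.40, SE 0.10, adjusted p = 0.018). Both kept the labels apart, and H2BC3 had the highest log2 difference of the 9.

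Outside H2B, the genes that rose were H2AC12, H2AC16 and H4C8. H2AC12, the H2A gene beside H2BC12, had 140, 150 and 137 CPM against 124, 126 and 107 CPM (0.25, SE 0.056, adjusted p = 0.0069). H4C8, an H4 gene, had 251, 283 and 258 against 230, 238 and 202 CPM (0.23, SE 0.057, adjusted p = 0.018). H2AC16 had 57.4, 55.4 and 51.6 against 48.5, 49.1 and 44.4 CPM (0.20, SE 0.057, adjusted p = 0.038). In all 3 the labels did not overlap, and SCR C was the lowest library. By position, 3 of the 5 genes in the shortest chromosome 6 group passed (H2BC11, H2BC12 and H2AC12), as did 3 of 27 tested in the group of 34. The group of 16 had 1 of 14 tested, the chromosome 1 groups had 1 of 9 and 1 of 2, and H4C16 did not pass (all genes 3.7%).

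Higher differences without a call in this fit belonged to genes whose libraries varied more. H2BC14 had 23, 21.6 and 15.8 CPM with the label gN1E and 13.5, 16.5 and 12.1 with SCR (0.51, SE 0.19, adjusted p = 0.28), and H4C5 had 184, 154 and 112 against 111, 121 and 99.3 (0.43, SE 0.22, adjusted p = 0.44). Libraries overlapped in both, through gN1E C, and H2BC14 passed with the replicate block (adjusted p = 0.0012), limma-voom and no count filter. Replicate letters were not shown to pair in H929. H4C11 (2.01, 1.78 and 1.93 against 2.20, 2.703 and 2.84 CPM) and H4C12 (2.82, 1.91 and 2.53 against 2.84, 3.13 and 3.61 CPM) were the 2 genes with every gN1E library below every SCR library. Their log2 differences were -0.44 (SE 0.16, adjusted p = 0.12) and -0.40 (SE 0.16, adjusted p = 0.16), and the pair shares sequence, so they are not separate observations. H2BC6 had -0.27 (SE 0.15, adjusted p = 0.36).

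The count of 9 depended on the fit and on single libraries. It was 2 without gN1E B (H2BC12 and H2BC26, all genes 2.3%), 4 without SCR C (H2BC11, H2BC12, H2BC18 and H2AC12, all genes 2.84%), 18 without SCR B (all genes 3.69%) and 23 without gN1E C (all genes 3.56%). It was 16 with DESeq2 (all genes 3.92%), 27 with no count filter (all genes 2.94%) and 1, H2BC11, in the joint fit of the 18 libraries (all genes 2.97%). H2B genes were 8 of the 16 and 13 of the 27, so the majority for H2B among the 9 did not hold there. That majority held with limma-voom (6 of 11, all genes higher 3.0%). It also held with the replicate block (10 of 17, all genes higher 2.92%), though letters were not shown to pair in H929. Single calls were kept in 6 (H2AC16) to 13 (H2BC11) of 14 other fits. No fold change reached 1.5 with all 6 libraries, H2BC14 and H4C5 exceeded it with 1 library left out (log2 difference up to 0.66 and 0.60), and in each of these settings every histone gene called was higher with NEAT1.

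**Figure D4:**
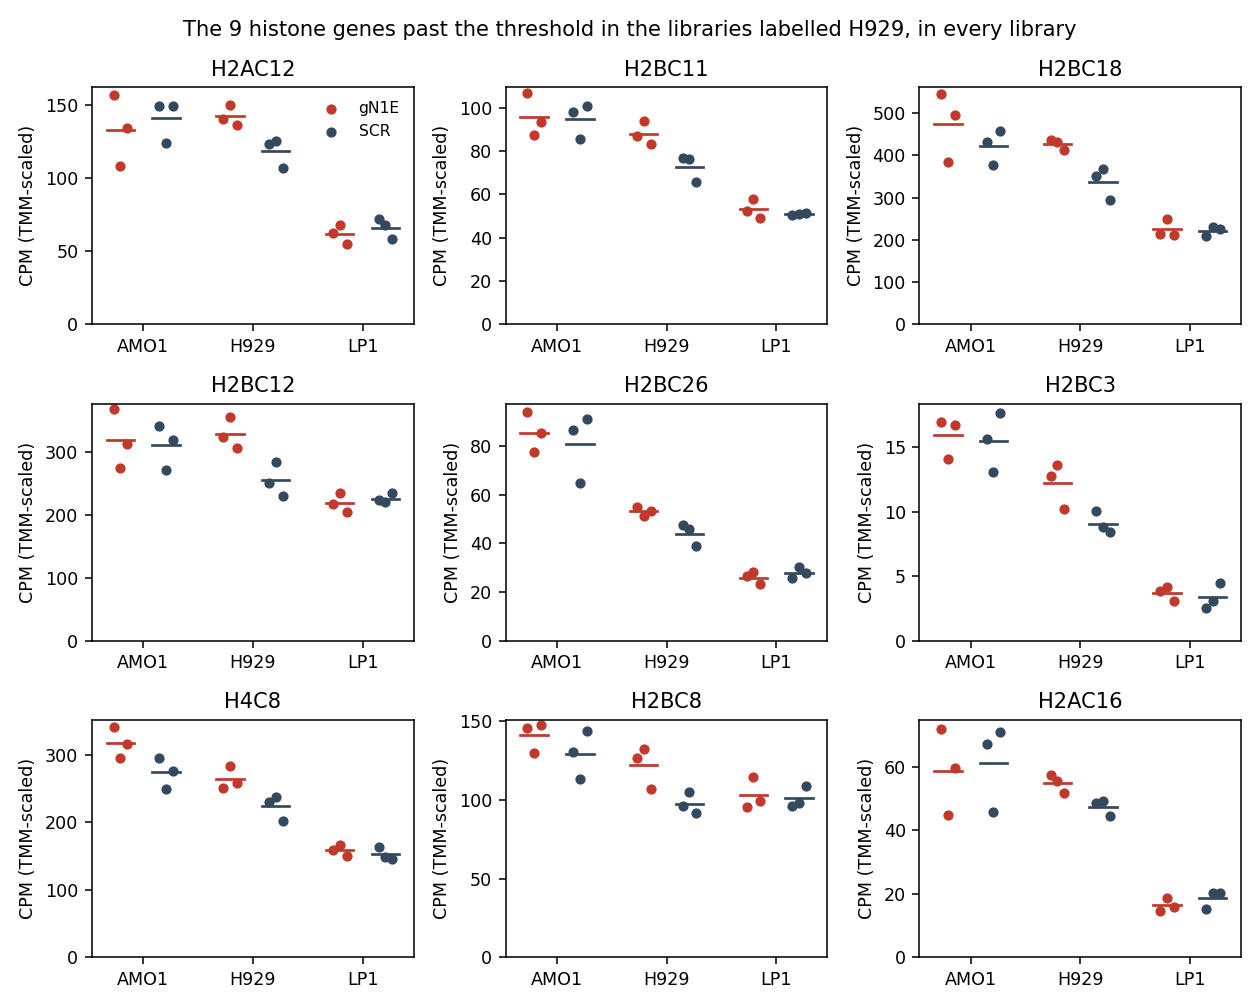
Points give the TMM-scaled CPM of the 9 genes past the threshold in H929 in all libraries, red for the label gN1E and dark blue for SCR, with bars at the means. In H929 the red points lie above the dark blue ones in each panel, while the labels overlap in AMO1 and LP1 in every panel.

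In LP1, 2 of 15 tested H2A genes fell with NEAT1, in some fits only, and the labels overlapped in the histone total. The 69 genes took 0.428, 0.468 and 0.419% of counts under gN1E and 0.428, 0.438 and 0.455% under SCR, which overlapped (ratio 0.996). H2A transcripts alone took 0.0728 ± 0.0041% under gN1E and 0.0796 ± 0.0016% under SCR (SD, n = 3), a ratio of 0.914 without overlap, and 0.884 with TMM scaling. The shares of H1, H2B, H3 and H4 overlapped.

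H2AC20 and H2AC25 fell, 2 of 60 histone genes tested (3.33%; all genes 0.777%). None rose (all genes 0.656%). At an unadjusted p under 0.05, 8 lay lower and 4 higher, together 12 of 60 (all genes 3018 of 23165). DESeq2 and limma-voom called none higher. H2AC20, a strongly expressed H2A gene of chromosome 1, had 142, 167 and 164 CPM with the label gN1E and 204, 211 and 183 with SCR (-0.32, SE 0.063, adjusted p = 0.016). H2AC25, the weakly expressed H2A gene beside H2BC26, had 5.15, 6.05 and 4.96 against 8.84, 7.94 and 7.09 CPM (-0.54, SE 0.11, adjusted p = 0.013). For both, every gN1E library lay below every SCR library. H2AC4 came next, with 34.5, 33.6 and 28.9 against 41.7, 42.6 and 34.8 CPM (-0.27, SE 0.074, adjusted p = 0.080), and its labels did not overlap either. H2AC4 passed with the replicate block (adjusted p = 0.032), DESeq2 and no count filter. Each of these called 3 genes (all genes lower 0.57%, 1.24% and 1.17%), and replicate letters were not shown to pair in LP1.

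Every gN1E library lay below every SCR library for 7 of the 60 genes (11.7%; all genes 10.6%), of which 5 were H2A genes, and above for none (all genes 7.42%). The 7 include H3C4, which reached 10 reads in SCR libraries only, so the count filter favours that direction. The H2A median was -0.16, with 12 of 15 genes below 0, and it stayed below 0 under each scaling tried. Over all histone genes tested the median was -0.05, beside 0.00 over all genes, and 24 of 60 lay above 0 (40.0%; all genes 49.7%). The H4 median was 0.04, with 7 of 12 genes above 0. The highest differences were H4C1 (0.21, SE 0.085, adjusted p = 0.28), H2BC9 (0.17, SE 0.15, adjusted p = 0.71) and H4C4 (0.16, SE 0.056, adjusted p = 0.19), whose labels overlapped. The 2 calls became 0 without SCR A, SCR B or gN1E A and in the joint fit, 1 (H2AC20, all genes 0.568%) without gN1E D and 5 without SCR D (all genes 2.14%), all lower.

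In AMO1, no histone gene passed, and the labels overlapped in the histone total. It was 0.908, 0.732 and 0.828% under gN1E and 0.872, 0.744 and 0.878% under SCR for letters A, C and D, lowest in C for both labels, with a ratio of 0.989. edgeR called 0 of 58 (all genes 2.06%), DESeq2 and limma-voom called 0, and 7 had an unadjusted p under 0.05 (12.1%; all genes 12.2%). All gN1E libraries lay above all SCR libraries for 1 gene, H1-3 (1.72%; all genes 9.17%), and below for 4, H4C4, H4C11, H4C12 and H2AC18 (6.90%; all genes 8.5%). H4C4 and H2AC18 reached 10 reads in SCR libraries only, so the count filter favours this direction, and H2AC18 cannot be read from these counts. The median was -0.03, beside -0.02 over all genes, and 26 of 58 lay above 0 (44.8%; all genes 46.5%). The H2A median was -0.12, with 4 of 16 genes above 0, and lay below 0 under each scaling tried, as in LP1.

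Across labels, AMO1 had correlations of 0.33, 0.23 and 0.16 between same-letter deviations over 11432 genes. Different letters gave -0.46 (gN1E A with SCR C) to 0.24 (gN1E D with SCR C). The fit was repeated with the letter as a block. It called 14 histone genes, 7 higher (all genes 3.38%) and 7 lower (all genes 2.69%). Higher in the blocked fit were the linker histone genes H1-2 and H1-3, the H4 genes H4C2, H4C3 and H4C8, H2AC8 and H2BC18. Lower were H4C9, H4C11, H4C12, H2AC15, H2BC4, H2BC5 and H2BC15.

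H4C8 had 342, 295 and 317 CPM for letters A, C and D with the label gN1E and 296, 250 and 276 with SCR, higher in each letter (0.22, SE 0.066, adjusted p = 0.12, and blocked 0.22, SE 0.044, adjusted p = 0.00039). H4C2 had 235, 200 and 220 against 204, 174 and 197 CPM (0.19, SE 0.069, adjusted p = 0.23, and blocked 0.19, adjusted p = 0.0030). H2AC8 had 289, 221 and 268 against 237, 204 and 246 CPM (0.18, SE 0.11, adjusted p = 0.55, and blocked 0.18, adjusted p = 0.0078). All 3 were higher within each letter although the labels overlapped across letters.

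H4C11 had 1.81, 1.53 and 1.83 against 3.20, 2.12 and 3.09 CPM (-0.68, SE 0.19, adjusted p = 0.083, and blocked -0.69, SE 0.18, adjusted p = 0.0079). Its near-copy H4C12 had 1.87, 1.46 and 2.78 against 3.22, 2.91 and 3.18 CPM (-0.61, SE 0.19, adjusted p = 0.14, and blocked -0.63, adjusted p = 0.014). H3C13 had 118, 63.5 and 89.3 against 128, 101 and 117 CPM (-0.35, SE 0.27, adjusted p = 0.70, and blocked -0.39, adjusted p = 0.12). Both H4 genes were lower without overlap, as in H929, and H3C13 overlapped. The joint fit called 2 genes lower (all genes 0.715%), H4C11 (-0.69, adjusted p = 0.026) and H4C4 (-1.67, SE 0.47, adjusted p = 0.047), the latter on 2 to 24 counts per library. Leaving out SCR A gave 2 calls (H1-3 and H4C8, higher, all genes 1.58%), SCR C 3 (H2BC5, H2BC15 and H4C11, lower, all genes 1.11%) and gN1E D 1 (H4C12, lower, all genes 0.0829%), and the other libraries 0.

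**Figure D5:**
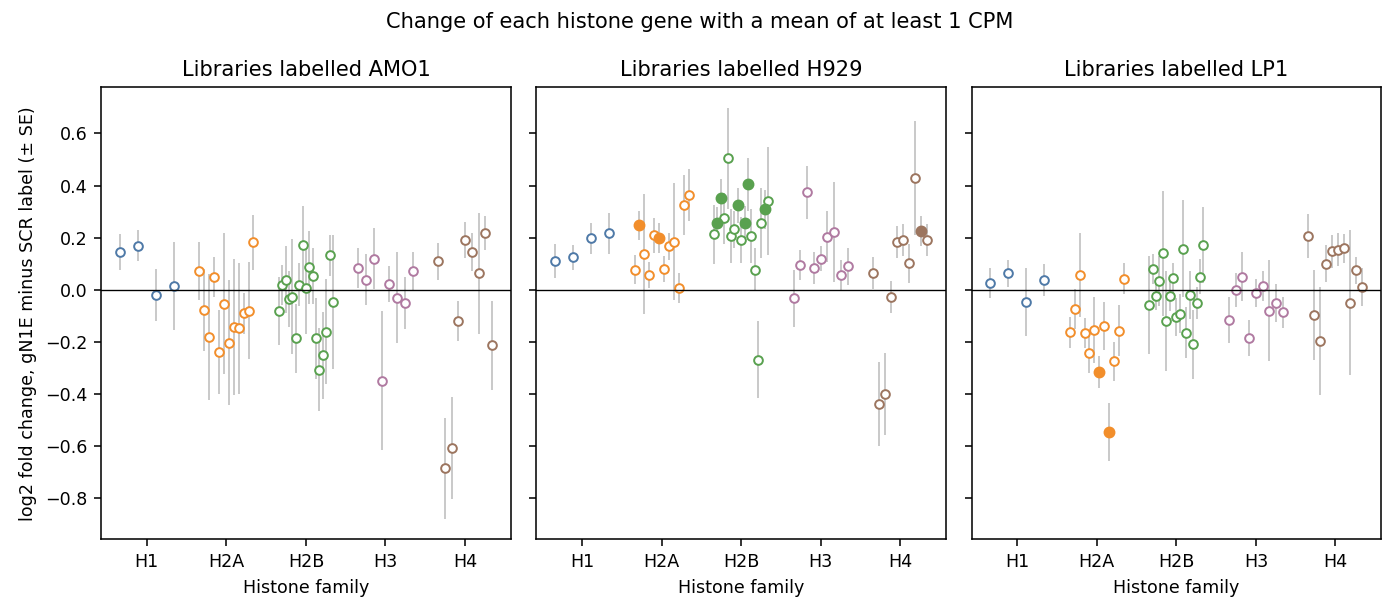
Points give the log2 difference of each histone gene, gN1E minus SCR, with its SE, by family in the 3 lines, for genes with a mean of at least 1 CPM in the line; filled points passed an adjusted p of 0.05. The H929 points lie mostly above 0 with 9 filled, the LP1 H2A points mostly below 0 with 2 filled, and the AMO1 points on both sides with none filled.

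A difference between lines was tested as an interaction in the joint fit. No histone gene of 62 passed in any of the 3 pairs, so the change in H929 is not shown to differ from that in the other lines. For AMO1 against H929, edgeR called 0 (all genes 0.0%) and 4 had an unadjusted p under 0.05 (6.45%; all genes 6.7%). AMO1 against LP1 gave 0 (all genes 0.741%) and 3 (4.84%; all genes 10.7%), and H929 against LP1 gave 0 (all genes 0.874%) and 8 (12.9%; all genes 10.1%). DESeq2 called 0, 1 (H4C4, lower response in AMO1, all genes 0.344%) and 0 in these pairs and limma-voom 0 in each. With the letter as a block, 7 genes passed for H929 against LP1, all with the higher response in H929 (all genes 1.2%), and 0 in the other pairs. Replicate letters were not shown to pair in H929 or LP1. H4C4 had the lowest adjusted p in AMO1 against LP1, with a response difference of -1.81 (SE 0.47, adjusted p = 0.065), and passed without AMO1 SCR A. The median response difference was 0.28 for H929 minus LP1 (all genes 0.03), -0.24 for AMO1 minus H929 (-0.02) and 0.02 for AMO1 minus LP1 (0.01).

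Genes that make, process and load histones were read from lists, to be held against the 3.7% of all genes that rose in H929. Of 12 genes for the transcription of histone genes, CDK2 and its partner CCNE1 rose with NEAT1 in H929, to 74.9 ± 3.31 from 63.9 ± 3.12 CPM (0.22, SE 0.052, adjusted p = 0.011) and to 40.2 ± 1.61 from 34.7 ± 1.42 CPM (0.20, SE 0.057, adjusted p = 0.036). Of 16 chaperones, DAXX, which loads the variant H3.3, rose in H929 (49.4 ± 0.401 from 42.9 ± 2.64 CPM; 0.19, SE 0.055, adjusted p = 0.042). The transcription list summed higher under gN1E without overlap in each line (1379 to 1420 against 1300 to 1364 CPM in AMO1, 1301 to 1326 against 1238 to 1271 in H929, 1403 to 1428 against 1375 to 1385 in LP1). ATM added most to these sums, with means of 309, 264 and 419 CPM in AMO1, H929 and LP1. No gene of this list passed in AMO1 or LP1. None of the 17 tested of 18 genes for mRNA processing and decay passed in any line with edgeR. Of 22 DNA replication genes, 4 rose in H929, where their sum was also higher without overlap (4370 to 4727 against 4081 to 4355 CPM). POLA1, the catalytic subunit of DNA polymerase alpha, rose in H929 (0.25, SE 0.048, adjusted p = 0.0013) and in AMO1 (0.24, SE 0.059, adjusted p = 0.032). ORC1, MCM5 and POLE rose in H929 (0.18, 0.17 and 0.16, adjusted p = 0.037, 0.046 and 0.047), and the medians of the list were 0.13 in AMO1, 0.08 in H929 and 0.05 in LP1. In H929, CDK2 and POLA1 kept the call in 11 and 14 of 14 other fits, but CCNE1, DAXX, ORC1, MCM5 and POLE in 8, 6, 8, 7 and 7, and POLA1 in AMO1 in 8.

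Of 12 genes listed as replication-independent histones, 8, 11 and 10 were tested in AMO1, H929 and LP1. None passed in AMO1 or H929, and H2AX, the variant phosphorylated at DNA breaks, fell in LP1 (141 ± 12.3 from 178 ± 15.5 CPM; -0.32, SE 0.067, adjusted p = 0.028), a call kept in 9 of 14 other fits. Their list medians were 0.04, 0.00 and -0.03 in AMO1, H929 and LP1.

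Plasma cell markers fitted the cell type label. All 9 had a mean of at least 1 CPM in each line, with sums of 17103 ± 1061, 19697 ± 1380 and 11684 ± 303 CPM in AMO1, H929 and LP1. SDC1 (CD138) was the most abundant in AMO1 (10662 CPM) and H929 (12927 CPM) and JCHAIN in LP1 (4230 CPM). In H929, SDC1 rose (0.22, adjusted p = 0.020) and CD38 fell (-0.21, adjusted p = 0.0041). T-cell markers summed to 21.9, 8.52 and 13.3 CPM, nearly all CD3E, monocyte markers to 0.359, 0.304 and 6.61 CPM, led by CD14, CD14 and CSF1R, and fibroblast markers to 1.61, 1.20 and 1.15 CPM, led by COL1A1. Epithelial markers summed to 10.3, 15.4 and 40.7 CPM, led by CDH1, KRT8 and KRT18, and KRT8 fell in H929 (-0.29, adjusted p = 0.036). The calls of SDC1, CD38 and KRT8 were kept in 8, 14 and 6 of 14 other fits. By label, the epithelial sum was lower in every gN1E library than in every SCR library of each line (7.48 to 9.39 against 10.9 to 13.3 CPM in AMO1, 13.3 to 14.3 against 14.9 to 18.1 in H929, 36.5 to 39.6 against 42.4 to 44 in LP1). The plasma cell sum of H929 was higher under gN1E without overlap (20081 to 21290 against 17929 to 18913 CPM), and the T-cell and monocyte sums of LP1 were lower without overlap. The part of any of these lists in the histone differences was not tested.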

How the data were processed

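The authors deposited raw counts of read pairs per gene (aligned to hg38 with STAR 2.7.10a, counted by strand with featureCounts 1.6.4, GENCODE 43), without pairs that align to several places or overlap several genes. Genes were tested in R 4.3.3 with edgeR 4.0.16 (TMM, robust quasi-likelihood fit, Benjamini-Hochberg adjustment over all genes tested, threshold 0.05), for each line and, for responses and levels, jointly. Alternatives were DESeq2 1.42.0, limma-voom (limma 3.58.1), other scalings and filters, the replicate letter as a block, a joint fit, a looser rule and each library left out; the fits were tested on simulated data. Same-letter libraries were checked for correlated deviations. Only in AMO1 were all same-letter correlations positive, and pairing was assumed there. It is not settled, since gN1E D with SCR C (0.24) exceeded letters C (0.23) and D (0.16). Same-letter correlations were 0.02, -0.04 and -0.17 in H929 and 0.29, -0.07 and -0.15 in LP1. Pairing was not shown in those lines, so their blocked fits are given as alternatives only. SE is the log2 difference over the root of F. The members and lists were chosen with earlier results of these data known. Named genes are the 3 most expressed per family and the 3 largest differences in each direction per comparison. By label, these differences were taken only from genes with a mean of at least 1 CPM in the line. All members past the threshold by label are also named, and of the other lists at most 4 past it. Genes outside this rule were chosen after their values were seen.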

Additional observations from a re-analysis of the deposited data

Results flagged for a closer look

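H2AC15, an H2A gene of chromosome 6, is given because every gN1E library lay above every SCR library in H929 (24.6, 29.9 and 28.3 against 24.0, 24.3 and 22.7 CPM) and below in LP1 (14.4, 15.1 and 12.8 against 16.5, 17.4 and 16.9 CPM). Of all genes, 12.2% lay above in this way in H929 and 10.6% below in LP1. The response difference, H929 minus LP1, was 0.49 on the log2 scale (SE 0.17) and was not past the test of that difference (edgeR, adjusted p = 0.28). It passed with no count filter and with the replicate letter as a block, though letters were not shown to pair in H929 or LP1.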

How the results depend on the processing

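No called difference reversed. Of the alternatives for single genes, 803 kept the side of the threshold, 102 lost it, 22 gained it and 1 changed sign without a call. Histone genes called in AMO1 went from 0 to 14 with the replicate block (all genes 3.38% higher and 2.69% lower). Library size only gave 1, lower (all genes 1.29%). With no filter, 1 was higher (all genes 1.18%) and 2 lower (all genes 1.06%). The joint fit gave 2 (all genes lower 0.715%) and the looser rule (adjusted p under 0.1 and at least 1.5-fold) 1. Leaving a library out gave 0 to 3. In H929, 9 became 17 with the block (8 of the 9 among them, all genes higher 2.92%), 16 with DESeq2 and 27 with no filter. The count became 1 in the joint fit, 0 at the looser rule, and 2 to 23 with a library left out. In LP1, 2 became 0 in the joint fit and at the looser rule, and 0 to 5 with a library left out. The count was 3 with the block (all genes lower 0.57%), DESeq2 (1.24%) or no filter (1.17%). Differing responses went from 0 to 1 with no filter in each pair. All genes called on that side were 0.0914% for AMO1 against H929, 0.196% for AMO1 against LP1 and 0.708% for H929 against LP1. AMO1 against LP1 had 1 with DESeq2 (all genes 0.344%), 1 with library size only (0.299%) and 0 to 1 with a library left out. H929 against LP1 had 7 with the block (all genes 1.2%). The LP1 difference in NEAT1, with a library left out, was 2.00 to 2.25 and lost the threshold in 4 of 6 fits. The H929 ratio of summed shares moved from 1.11 to 1.16 with TMM scaling, chosen after seeing the data. Leaving a library out also leaves 2 against 3, and the cause of these changes was not tested. Genes under 10 reads, and copies with identical exons, cannot be read at this depth and counting rule.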
